A study of Mus musculus with 6 samples.

Results

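The prostaglandin pathway was followed in primary mouse embryonic fibroblasts (MEFs) through 10 genes that make, break down or sense prostaglandins. They were Pla2g4a, Ptgs1, Ptgs2, Ptges, Ptges2, Ptges3, Ptgis, Ptgr1, Hpgd and Ptger4. They were taken by name from the 43346 genes of the deposited count table, in which each name matched 1 row. MEFs are fibroblasts grown from mouse embryos. All cells were of the C57BL/6 strain and at passage 9. They were kept for 24 h with 3 µM erastin or with its solvent DMSO, and total RNA was sequenced after removal of ribosomal RNA, in 3 libraries per treatment and 6 in all. Erastin blocks the cystine/glutamate antiporter and is used to induce ferroptosis, a cell death driven by lipid peroxidation. The culture medium of both groups held 2-mercaptoethanol, a thiol, and serum. The labels say that the experiment was done 3 times but not that the cultures came from separate embryos, so p-values measure the spread between these libraries.

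Prostaglandins are signalling lipids made from arachidonic acid, which the cytosolic phospholipase A2 encoded by Pla2g4a cuts from membrane phospholipids. The cyclooxygenases, encoded by Ptgs1 and Ptgs2, turn it into prostaglandin H2, from which terminal synthases make prostaglandin E2, prostacyclin and other products. Ptgs1 is commonly described as the constitutive isoenzyme and Ptgs2 as the inducible one, and the Ptgs2 transcript is widely used as a marker of ferroptosis. In fibroblasts the pathway is best known for prostaglandin E2, which acts on neighbouring cells through membrane receptors and is inactivated by oxidation and reduction.

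Of the 10 genes, 1 rose with erastin, 2 fell, 6 did not pass the test and 1 had too few reads to be tested. Ptgs2 rose 6.37-fold. Ptges, the inducible prostaglandin E2 synthase, and Ptgis, the prostacyclin synthase, fell to 0.740 and 0.756 of their DMSO levels. Genes were called changed at an adjusted p-value under 0.05 in edgeR's quasi-likelihood test, which was fitted to all 14000 genes with enough reads. Among all genes tested 43.1% passed, 21.6% as higher and 21.5% as lower. Of the 9 tested prostaglandin genes 3 passed, or 33.3%, a share near that background. The median log2 fold change of the 9 was 0.22, against -0.0014 for all genes tested. Levels are given in CPM, the usual measure of a gene's reads relative to all reads of its library, after scaling between libraries by the trimmed mean of M-values (TMM).

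**Figure D1:**
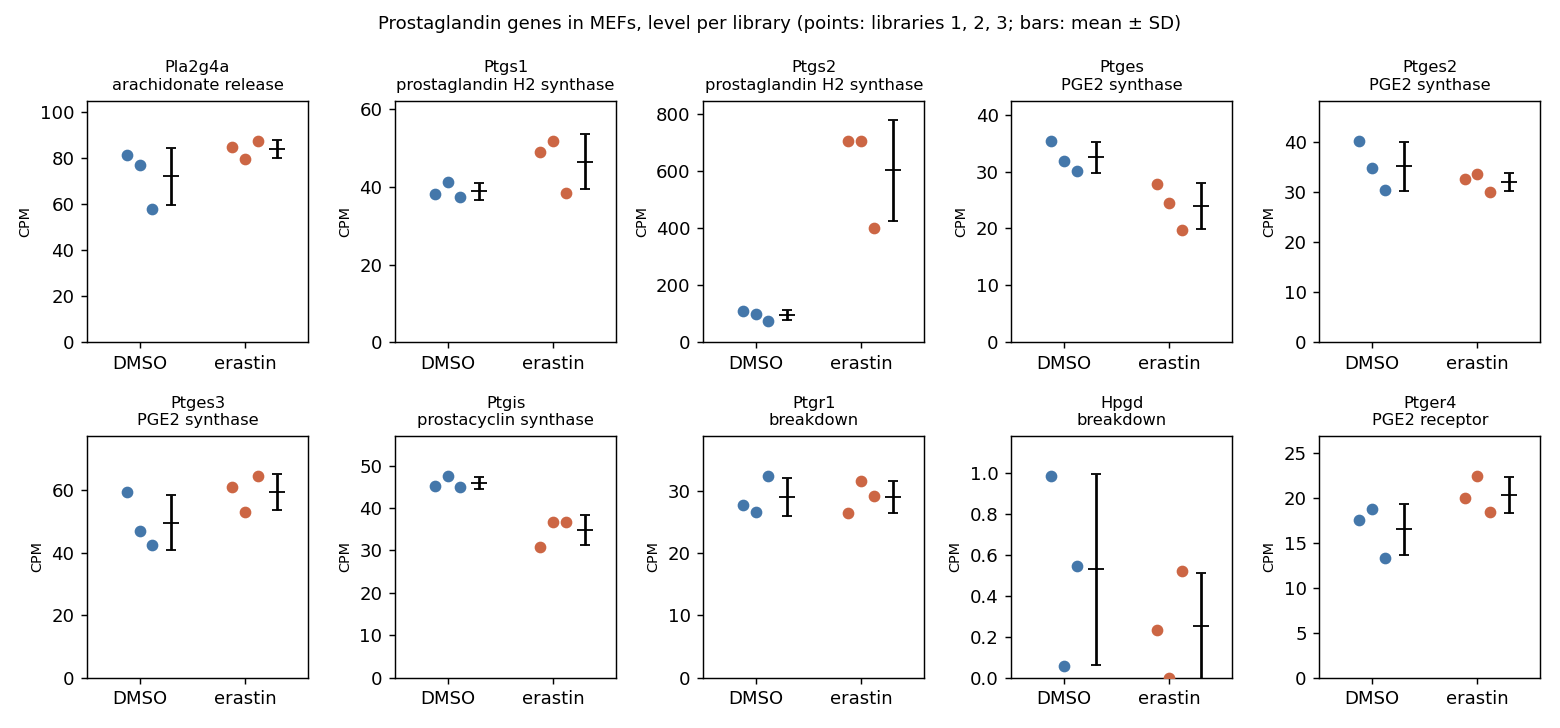
Level of each of the 10 genes in CPM (vertical axis, from 0) in the 3 DMSO libraries (blue) and the 3 erastin libraries (orange); black bars give the mean ± SD. Ptgs2 stood at 75.8 to 108 CPM in DMSO and at 399.7 to 707 CPM in erastin libraries, and Ptges and Ptgis were lower in each erastin library than in any DMSO library.

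The promoters of both cyclooxygenase genes and of Ptges, whose enzyme acts on the cyclooxygenase product, are shown because the 3 transcripts had different responses. RefSeq windows of 300 bases, from 250 before to 50 after the annotated start, were found for 9 of the 10 genes (GRCm38.p6). Both strands were searched for the TATA box TATAAA, the full cAMP response element TGACGTCA and its core CGTCA, the AP-1 element TGANTCA, the antioxidant response element core TGACNNNGC, the E-box CACGTG and the C/EBP-ATF core TGATGNAA. The full cAMP response element contains the core. The sequences are given 5′ to 3′ on the strand of the gene, with every match in capitals. The Ptgs2 window is chr1:150099781-150100080 on the plus strand, the Ptgs1 window chr2:36230176-36230475 on the plus strand, and the Ptges window chr2:30903248-30903547 on the minus strand. The Ptges window is at an internal start, because the gene reaches to 30929863 in GENCODE M21. No window at that outer start of Ptges was searched.
Ptgs2: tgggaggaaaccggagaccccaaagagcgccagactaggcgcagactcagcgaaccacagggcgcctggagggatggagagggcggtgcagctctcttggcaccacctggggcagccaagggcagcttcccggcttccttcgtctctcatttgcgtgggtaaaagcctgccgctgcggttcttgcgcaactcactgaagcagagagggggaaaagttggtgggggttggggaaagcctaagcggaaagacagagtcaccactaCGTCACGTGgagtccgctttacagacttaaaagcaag
Ptgs1: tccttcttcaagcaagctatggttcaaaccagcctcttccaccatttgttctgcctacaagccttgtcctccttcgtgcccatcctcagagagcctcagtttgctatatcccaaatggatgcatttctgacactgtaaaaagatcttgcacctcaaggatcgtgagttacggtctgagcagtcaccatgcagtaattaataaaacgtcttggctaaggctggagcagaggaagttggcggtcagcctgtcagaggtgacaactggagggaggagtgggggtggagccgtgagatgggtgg
Ptges: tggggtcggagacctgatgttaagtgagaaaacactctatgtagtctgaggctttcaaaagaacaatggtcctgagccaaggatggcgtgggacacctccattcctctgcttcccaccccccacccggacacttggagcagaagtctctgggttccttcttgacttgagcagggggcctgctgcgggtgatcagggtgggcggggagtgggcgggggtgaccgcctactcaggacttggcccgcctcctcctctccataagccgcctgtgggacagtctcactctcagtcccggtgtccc

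In the Ptgs2 window the core CGTCA and the E-box CACGTG overlapped in the run CGTCACGTG, which began at position 14 after the annotated start. No searched motif matched in the windows of Ptgs1 and Ptges, which says only that these letters are not in those 300 bases. Of 32851 RefSeq windows of the same length, 20.8% held the core, 7.15% the E-box and 0.451% the overlapping run. That run was singled out after it had been seen in the Ptgs2 window. TATAAA was in 13.6% of windows, TGACGTCA in 1.79%, TGANTCA in 7.81%, TGACNNNGC in 12.4% and TGATGNAA in 3.97%. Among the other windows, that of Ptgr1 held TGATGCAA and that of Ptges2 an E-box. That of Ptges3 held the core CGTCA within an antioxidant response element match. The Hpgd window held the letters TATAAA, beginning at position 5 after the RefSeq start. The GENCODE M21 start of Hpgd, 56294585, lies further downstream, so the match is before that start. One of the 2 Pla2g4a windows, at an internal start, held a TATA box on the opposite strand. A match is a description of the letters and not a measurement of binding.

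Total counts per library ran from 13333911 to 20509970, so 3 reads, taken as the smallest detectable level, were worth 0.14 to 0.234 CPM, counting error only. Before averaging, libraries were compared in pairs by chi-square: divided by its degrees of freedom it reached 11 to 19.2 inside a group and 78 to 123 across groups, above sampling noise in each pair. All 10 fibroblast markers examined were detected, among them Col1a1 at 10976 ± 429 CPM in DMSO (SD, n = 3). Of these 10 markers 8 fell with erastin, and their summed level went from 35433 to 38496 CPM in DMSO to 25455 to 26901 CPM in erastin libraries. In RNA of whole cultures, fewer cells of a type and less RNA per cell cannot be told apart. The part of this shift in the results on the prostaglandin genes was not tested. All 8 markers of macrophages and other leukocytes had reads, but their summed level was 15.4 to 22.3 CPM in DMSO and 12.1 to 22.4 CPM with erastin. Of the 7 tested, Cx3cr1, a chemokine receptor of macrophages, passed as lower, from 1.53 ± 1.03 to 0.378 ± 0.277 CPM (mean ± SD, n = 3, with 0.0403 as edgeR's adjusted p). Its groups overlapped, and the call was lost without DMSO library 1, DMSO library 2, erastin library 1 or erastin library 3, in turn (edgeR adjusted p up to 0.263). Cd68, a lysosomal protein of macrophages, went from 2 ± 0.95 to 4.18 ± 1.07 CPM and did not pass (mean ± SD, n = 3, with 0.0548 as edgeR's adjusted p). Ptprc, the common leukocyte antigen, stood at 0.898 ± 0.271 and 0.718 ± 0.469 CPM (SD, n = 3 each). The 5 endothelial markers summed to 5.1 to 7.71 CPM in DMSO and 14.1 to 17.4 CPM with erastin, of which Kdr and Tek passed as higher. The endothelial junction genes Pecam1 and Cdh5 had means of 0.0948 and 0.232 CPM in DMSO and 0.372 and 0.347 CPM with erastin. The 5 epithelial markers summed to 14.4 to 17.5 and 15 to 26.9 CPM. The single markers given here were picked from their lists after their values were seen.

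Release of arachidonic acid was represented by Pla2g4a (chromosome 1, 149829618 to 149961290, minus strand). It had 81.3, 76.9 and 58.1 CPM in DMSO libraries 1, 2 and 3, and 84.6, 79.6 and 87.5 CPM in the erastin libraries. The groups overlapped, because erastin library 2 lay below DMSO library 1. The log2 fold change was 0.22 (SE 0.11, 95% interval -0.022 to 0.46, edgeR adjusted p = 0.133), and Pla2g4a passed in none of 15 alternative settings. Its mean of 83.9 ± 4 CPM with erastin (SD, n = 3) had a smaller spread than the 72.1 ± 12.3 CPM in DMSO (SD, n = 3), a difference in spread that was not tested.

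Ptgs2 (ENSMUSG00000032487.8; chromosome 1, 150100031 to 150108227, plus strand) lies 139 kb from Pla2g4a, with 0 protein-coding genes between them in GENCODE M21. It had 1433, 1805 and 974 reads in DMSO libraries 1, 2 and 3, and 15138, 11817 and 7708 reads in the erastin libraries. These were 108, 100.1 and 75.8 CPM in DMSO and 705, 707 and 399.7 CPM with erastin. Every erastin library lay above every DMSO library, and erastin library 3 was well below the other erastin libraries. The mean rose from 94.7 ± 16.9 to 604 ± 177 CPM (mean ± SD, n = 3), a log2 fold change of 2.67 (SE 0.17, 95% interval 2.30 to 3.04, edgeR adjusted p = 4.07e-08). Without erastin library 3 the log2 fold change was 2.90, and without DMSO library 3 it was 2.53. Over all 15 alternative settings it stayed between 2.45 and 2.90 and passed each time. Of the genes tested, 1.43% had a larger absolute log2 fold change.

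Ptgs1 (ENSMUSG00000047250.9; chromosome 2, 36230426 to 36252272, plus strand), the other cyclooxygenase gene, had 38.1, 41.4 and 37.4 CPM in DMSO and 49, 51.9 and 38.5 CPM with erastin. Erastin libraries 1 and 2 were above all DMSO libraries, while erastin library 3 lay within the DMSO range. The log2 fold change was 0.25 (SE 0.12, 95% interval -0.0011 to 0.51, edgeR adjusted p = 0.101), which did not pass. This call turned on the setting. Ptgs1 passed as higher without erastin library 3 (log2 fold change 0.37, edgeR adjusted p = 0.0126), with scaling by total count only (0.32, edgeR adjusted p = 0.0428), and with an offset for GC content and transcript length (0.30, edgeR adjusted p = 0.0463; from 0.0126 to 0.346 in the 15 alternatives). With the replicate block added to that offset it was 0.29 (edgeR adjusted p = 0.0442).

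The balance of the cyclooxygenases was also measured inside each library, which needs no scaling between libraries. Of the summed reads per kb of exons of Ptgs1 and Ptgs2, Ptgs2 made up 70.7, 67.2 and 63.2% in DMSO libraries 1, 2 and 3, and 92.4, 92 and 89.8% in the erastin libraries. The groups did not overlap. Ptgs2 was thus already the more abundant cyclooxygenase transcript per length in every DMSO library. The mean share rose by 24.4 percentage points, from 67 ± 3.72 to 91.4 ± 1.42% (SD, n = 3; exact permutation test, two-sided, p = 0.1, the smallest value that 3 against 3 libraries can give). Erastin library 3, which had the lowest Ptgs2 level of the erastin libraries, had a share of 89.8%, above every DMSO library, and its Ptgs1 level was also the lowest of the erastin libraries.

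**Figure D2:**
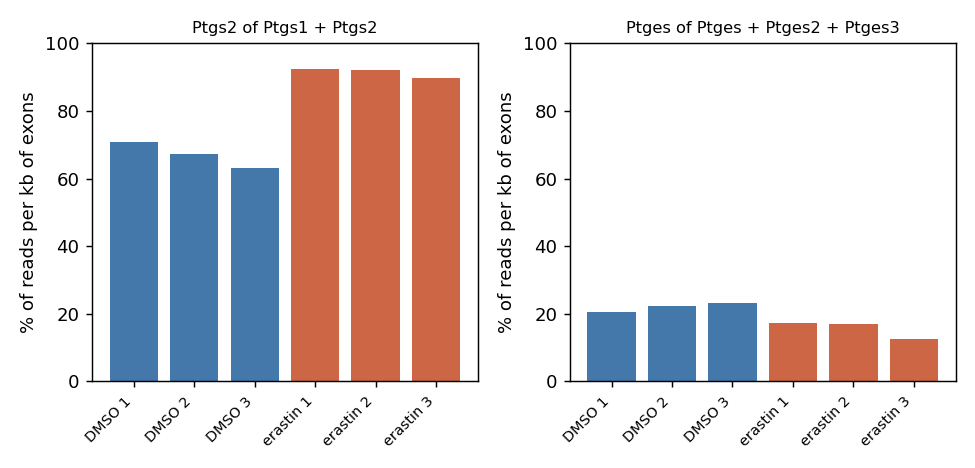
Share of Ptgs2 in the summed reads per kb of exons of Ptgs1 and Ptgs2 (left) and of Ptges in those of Ptges, Ptges2 and Ptges3 (right), in percent, for each DMSO (blue) and erastin (orange) library. The Ptgs2 share was at most 70.7% in DMSO and at least 89.8% with erastin; the Ptges share was at least 20.6% in DMSO and at most 17.2% with erastin.

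Prostaglandin H2 is turned into prostaglandin E2 by 3 synthases. Ptges (ENSMUSG00000050737.13; chromosome 2, 30889471 to 30929863, minus strand) encodes the microsomal enzyme that is commonly induced together with Ptgs2 in inflamed tissue. It had 35.4, 31.8 and 30.1 CPM in DMSO libraries 1, 2 and 3, and 27.8, 24.4 and 19.8 CPM with erastin. Every erastin library lay below every DMSO library, so the transcript fell while that of Ptgs2 rose. The mean fell from 32.5 ± 2.71 to 24 ± 4.03 CPM (mean ± SD, n = 3), a log2 fold change of -0.43 (SE 0.14, 95% interval -0.73 to -0.14, edgeR adjusted p = 0.0203). The direction held in all 15 alternatives, but the call was lost without erastin library 3 (log2 fold change -0.31, edgeR adjusted p = 0.0838), without DMSO library 1 (-0.37, edgeR adjusted p = 0.0841) and with scaling by total count only (-0.37, edgeR adjusted p = 0.0501; from 0.0108 to 0.0841 in the 15 alternatives).

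Ptges2 (chromosome 2, 32395896 to 32405772, plus strand), a membrane-associated synthase, had 40.3, 34.8 and 30.5 CPM in DMSO and 32.6, 33.6 and 30 CPM with erastin. The groups overlapped and the log2 fold change was -0.13 (SE 0.12, 95% interval -0.40 to 0.13, edgeR adjusted p = 0.407). Ptges3 (chromosome 10, 128058954 to 128077272, plus strand) encodes the cytosolic synthase, which is also p23, a co-chaperone of HSP90. It had 59.5, 46.9 and 42.5 CPM in DMSO and 61.1, 53 and 64.5 CPM with erastin. Here DMSO library 1 lay within the erastin range. The log2 fold change was 0.26 (SE 0.12, 95% interval 0.0018 to 0.53, edgeR adjusted p = 0.0977). Ptges3 passed as higher without DMSO library 1 (0.41, edgeR adjusted p = 0.0139) and without the filter on low counts (0.28, edgeR adjusted p = 0.0436; from 0.0139 to 0.304 in the 15 alternatives). A processed pseudogene, Ptges3-ps, had 64 to 139 reads per library against 546 to 1312 for Ptges3, and how reads were split between them is not given in the sources used here.

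Within a library, Ptges made up 20.6, 22.4 and 23.3% of the summed reads per kb of the 3 synthases in DMSO libraries 1, 2 and 3, and 17.2, 16.9 and 12.6% in the erastin libraries. The groups did not overlap. The mean share went from 22.1 ± 1.39 to 15.6 ± 2.59% (SD, n = 3; exact permutation test, two-sided, p = 0.1, again the smallest possible). Ptges3 was the most abundant of the 3 per length in both groups, at 22.4 ± 3.97 CPM per kb in DMSO and 26.8 ± 2.64 CPM per kb with erastin (SD, n = 3 each).

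The prostacyclin branch was represented by Ptgis (ENSMUSG00000017969.9; chromosome 2, 167191805 to 167240604, minus strand), which encodes prostacyclin synthase. It had 45.3, 47.5 and 44.9 CPM in DMSO libraries 1, 2 and 3, and 30.8, 36.7 and 36.8 CPM with erastin. The DMSO libraries lay close together and all erastin libraries were below them. The mean fell from 45.9 ± 1.39 to 34.8 ± 3.46 CPM (mean ± SD, n = 3), a log2 fold change of -0.40 (SE 0.11, 95% interval -0.63 to -0.18, edgeR adjusted p = 0.00669). Ptgis passed without each library in turn. It did not pass after the offset for GC content and transcript length (log2 fold change -0.24, edgeR adjusted p = 0.0904, and 0.0955 with the replicate block; from 0.00288 to 0.0955 in the 15 alternatives). The longest Ptgis transcript has a GC content of 56.6%, the highest of the 10 genes. An antisense gene that shares 6.08% of its exon bases, 1110018N20Rik, had at most 4 reads.

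Across all genes tested, 52.5% had no overlap between the groups. Among the 9 tested prostaglandin genes it was 3, Ptgs2, Ptges and Ptgis, which were also those that passed.

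**Figure D3:**
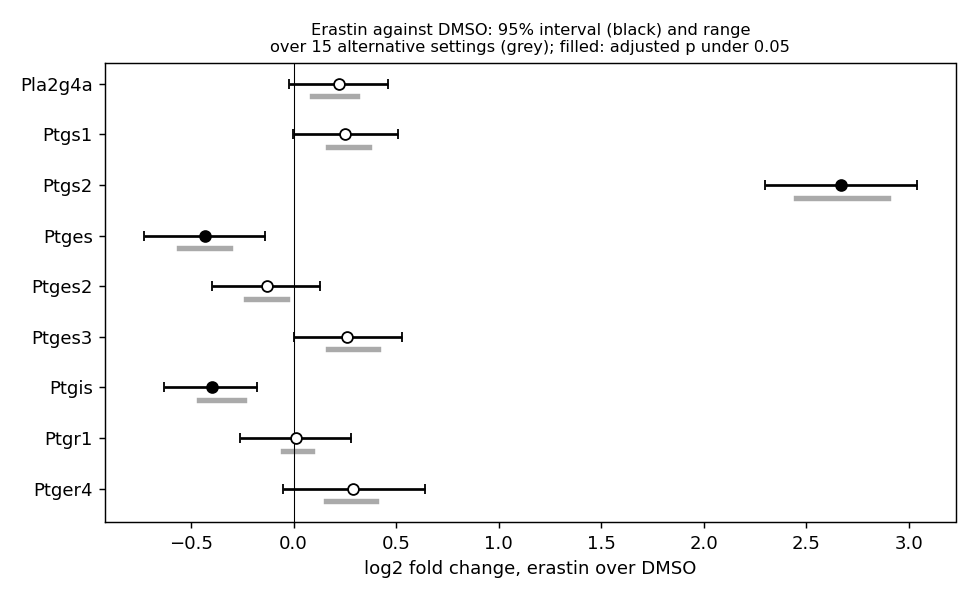
Log2 fold change of erastin over DMSO (horizontal axis) for the 9 tested prostaglandin genes, with the 95% interval in black and the range over 15 alternative settings in grey; filled points had an edgeR adjusted p-value under 0.05. Ptgs2 at 2.67 stands apart from the other genes, which lie between -0.43 and 0.29.

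Breakdown was represented by a reductase and a dehydrogenase. Ptgr1 (chromosome 4, 58965439 to 58987119, minus strand) encodes prostaglandin reductase, which also oxidises leukotriene B4. It had 27.7, 26.6 and 32.3 CPM in DMSO libraries 1, 2 and 3, and 26.4, 31.5 and 29.2 CPM with erastin, and the groups overlapped throughout. The log2 fold change was 0.01 (SE 0.13, edgeR adjusted p = 0.962), with a 95% interval of -0.26 to 0.28, which leaves room for changes of that size in either direction. Hpgd (chromosome 8, 56294585 to 56321043, plus strand), which encodes the dehydrogenase that starts the inactivation of prostaglandin E2, had 13, 1 and 7 reads in DMSO and 5, 0 and 10 reads with erastin. That is at most 0.982 CPM in any library. Hpgd did not reach the minimum for testing, and no fold change is given; 1 library of each group lay under the 3-read floor.

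Reception was represented by Ptger4 (chromosome 15, 5206661 to 5244187, minus strand), the EP4 receptor of prostaglandin E2, which signals through cAMP. It had 17.5, 18.7 and 13.3 CPM in DMSO and 20, 22.4 and 18.4 CPM with erastin. DMSO library 2 lay just above erastin library 3, so the groups overlapped. The log2 fold change was 0.29 (SE 0.16, 95% interval -0.053 to 0.64, edgeR adjusted p = 0.162), and Ptger4 passed in none of the 15 alternatives. Its exons overlap those of an antisense pseudogene, Gm15937, over 15.3% of their length, and those of antisense Ttc33 over 1.23%. Gm15937 had at most 9 reads in a library, and Ttc33 had 244 to 561. How reads in shared exons were counted is not given in the sources used here.

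Per kb of exons, the DMSO order was Ptges3 at 22.4 ± 3.97, Ptgs2 at 20.7 ± 3.68 and Ptgis at 17.9 ± 0.542 CPM per kb (SD, n = 3 each). Ptgr1, Pla2g4a and Ptgs1 followed at 12.6 ± 1.32, 11.3 ± 1.93 and 10.0 ± 0.556 CPM per kb, and Ptges and Ptges2 at 8.26 ± 0.691 and 6.96 ± 0.967 CPM per kb (SD, n = 3 each). Ptger4 was at 2.48 ± 0.425 and Hpgd at 0.313 ± 0.275 CPM per kb (SD, n = 3 each). The neighbours Ptges3 and Ptgs2, Ptgs2 and Ptgis, Ptgr1 and Pla2g4a, and Pla2g4a and Ptgs1 differed by less than their spread. With erastin Ptgs2 led at 132 ± 38.6 CPM per kb, ahead of Ptges3 at 26.8 ± 2.64 and Ptgis at 13.5 ± 1.35 (SD, n = 3 each). Ptgis, Pla2g4a, Ptgr1 and Ptgs1 then lay between 13.5 and 12 CPM per kb, within their spread, and so did Ptges2 and Ptges at 6.34 ± 0.365 and 6.11 ± 1.02 (SD, n = 3 each). Lengths are the union of annotated exons. The order depended on this choice. By the longest transcript, the DMSO levels were 24.8 CPM per kb for Ptges3, 21.8 for Ptgis, 21.3 for Ptgs2 and 20.9 for Pla2g4a, followed by 13.6 for Ptgs1 and 12.6 for Ptgr1. Pla2g4a and Ptger4, whose exon unions are much longer than their longest transcripts, moved most, from 11.3 to 20.9 and from 2.48 to 4.38 CPM per kb. Ptgs2 led with erastin by either length.

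The rest of the pathway was described from 4 lists of genes outside the 10. Among 8 other prostanoid receptors, 4 had enough reads, of which 2 fell and 0 rose, with a median log2 fold change of -1.68. Ptgfr, the receptor of prostaglandin F2α, had 15.3, 14 and 12 CPM in DMSO and 2.47, 2.75 and 0.83 CPM with erastin. Its level fell to 0.146 of that in DMSO (log2 fold change -2.77, SE 0.33, edgeR adjusted p = 1.01e-05). Tbxa2r, the thromboxane receptor, had 15.5, 14.8 and 9.89 CPM in DMSO and 1.86, 2.22 and 3.01 CPM with erastin, and fell to 0.176 of its DMSO level (log2 fold change -2.50, SE 0.27, edgeR adjusted p = 3.45e-06). All DMSO libraries were above all erastin libraries for both receptors, and both passed in all 15 alternatives. The prostacyclin receptor Ptgir was at 4.02 ± 1 and 5.85 ± 0.135 CPM (mean ± SD, n = 3 each, with 0.139 as edgeR's adjusted p). Ptger1, a prostaglandin E2 receptor, was at 2.33 ± 0.31 and 1.3 ± 0.704 CPM (mean ± SD, n = 3 each, with 0.209 as edgeR's adjusted p). The prostaglandin E2 receptors Ptger2 and Ptger3, named after their values were seen, had at most 6 reads in any library.

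Of 27 phospholipase and arachidonate release genes other than Pla2g4a, 13 were tested, 3 rose and 3 fell, with a median log2 fold change of 0.00. Pla2g12a, a secreted phospholipase A2, rose from 22.6 ± 2.6 to 54.4 ± 7.22 CPM (mean ± SD, n = 3), a log2 fold change of 1.26 (SE 0.13, edgeR adjusted p = 1.57e-06). Pnpla8, a membrane-bound calcium-independent phospholipase, rose from 36 ± 6.98 to 58.5 ± 0.754 CPM (mean ± SD, n = 3), a log2 fold change of 0.69 (edgeR adjusted p = 0.000397). Pla2g15, the lysosomal phospholipase A2, fell from 70.3 ± 7.43 to 44.6 ± 1.1 CPM (mean ± SD, n = 3), a log2 fold change of -0.66 (edgeR adjusted p = 7.31e-05).

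Among 13 other prostanoid synthases, reductases and transporters, 9 were tested, of which 2 rose and 1 fell, with a median of -0.04. Abcc4, an ATP-driven pump that can export prostaglandins, had 20.1, 15.9 and 13.2 CPM in DMSO and 50.8, 55.9 and 50.2 CPM with erastin. It rose 3.19-fold (log2 fold change 1.68, SE 0.14, edgeR adjusted p = 2.79e-07), with no overlap between the groups. Slco2a1, the transporter that takes up prostaglandins, rose from 82.3 ± 8 to 105 ± 15.1 CPM (mean ± SD, n = 3), a log2 fold change of 0.36 (edgeR adjusted p = 0.0158). This call was lost without erastin library 1, erastin library 2 or DMSO library 2, in turn (edgeR adjusted p up to 0.107). Slco3a1, a related organic anion transporter, fell from 55.7 ± 3.86 to 35.5 ± 0.784 CPM (mean ± SD, n = 3), a log2 fold change of -0.65 (edgeR adjusted p = 8.46e-05). The synthase genes Ptgds, Hpgds and Tbxas1, named after their values were seen, had at most 15 reads in a library and were not tested. They are not all the synthase genes of the list. Akr1b3 and Fam213b, also named after their values were seen, were expressed and did not pass. Their log2 fold changes were 0.26 (edgeR adjusted p = 0.152) and -0.04 (edgeR adjusted p = 0.902).

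Arachidonic acid is also used by lipoxygenases, and 9 of 22 genes of a lipoxygenase and leukotriene list were tested. The list was drawn broadly and also held Ephx1 and Ephx2, which are not lipoxygenase or leukotriene genes. Of the 9 tested genes 1 rose and 4 fell, Ephx1 and Ephx2 among the latter, with a median of -0.44. The epoxide hydrolase genes Ephx1 and Ephx2 both fell, Ephx1 from 349 ± 29 to 281 ± 19.7 CPM (mean ± SD, n = 3, with 0.0056 as edgeR's adjusted p), and Ephx2 from 6.77 ± 0.402 to 3.28 ± 1.11 CPM (mean ± SD, n = 3, with 0.0121 as edgeR's adjusted p). Mgst3, a microsomal glutathione transferase, fell from 16.5 ± 2.75 to 10.3 ± 1.61 CPM (mean ± SD, n = 3, with 0.00819 as edgeR's adjusted p). Ephx1 did not pass after the offset for GC content and length (edgeR adjusted p up to 0.0784). The remaining genes that passed, named after their values were seen, were Aloxe3, a skin lipoxygenase, from 0.329 ± 0.308 to 1.73 ± 0.717 CPM, and Ltb4r2, a leukotriene B4 receptor, from 1.18 ± 0.191 to 0.262 ± 0.241 CPM (mean ± SD, n = 3 each, with 0.0247 and 0.0253 as edgeR's adjusted p). The call of Aloxe3 was lost without DMSO library 1, DMSO library 3, erastin library 1 or erastin library 2, in turn (edgeR adjusted p up to 0.139). Ltb4r2 lost its call without DMSO library 1, DMSO library 2, erastin library 1 or erastin library 3, in turn, and without the filter on low counts (edgeR adjusted p up to 0.134). Both rest on few reads, 0 to 53 per library for Aloxe3 and 2 to 25 for Ltb4r2. Alox15 and Alox5 were also named after their values were seen. Alox15, a lipoxygenase that can oxidise membrane lipids, had 0 reads in all 6 libraries, and Alox5 stood at 1.08 ± 0.582 and 0.773 ± 0.381 CPM (mean ± SD, n = 3 each, with 0.611 as edgeR's adjusted p). The shares of tested genes that passed in the 4 lists were 50% for receptors, 46.2% for phospholipases and 33.3% for synthases and transporters. It was 55.6% for the lipoxygenase and leukotriene list, Ephx1 and Ephx2 included. These shares lay around the 43.1% of all genes.

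**Figure D4:**
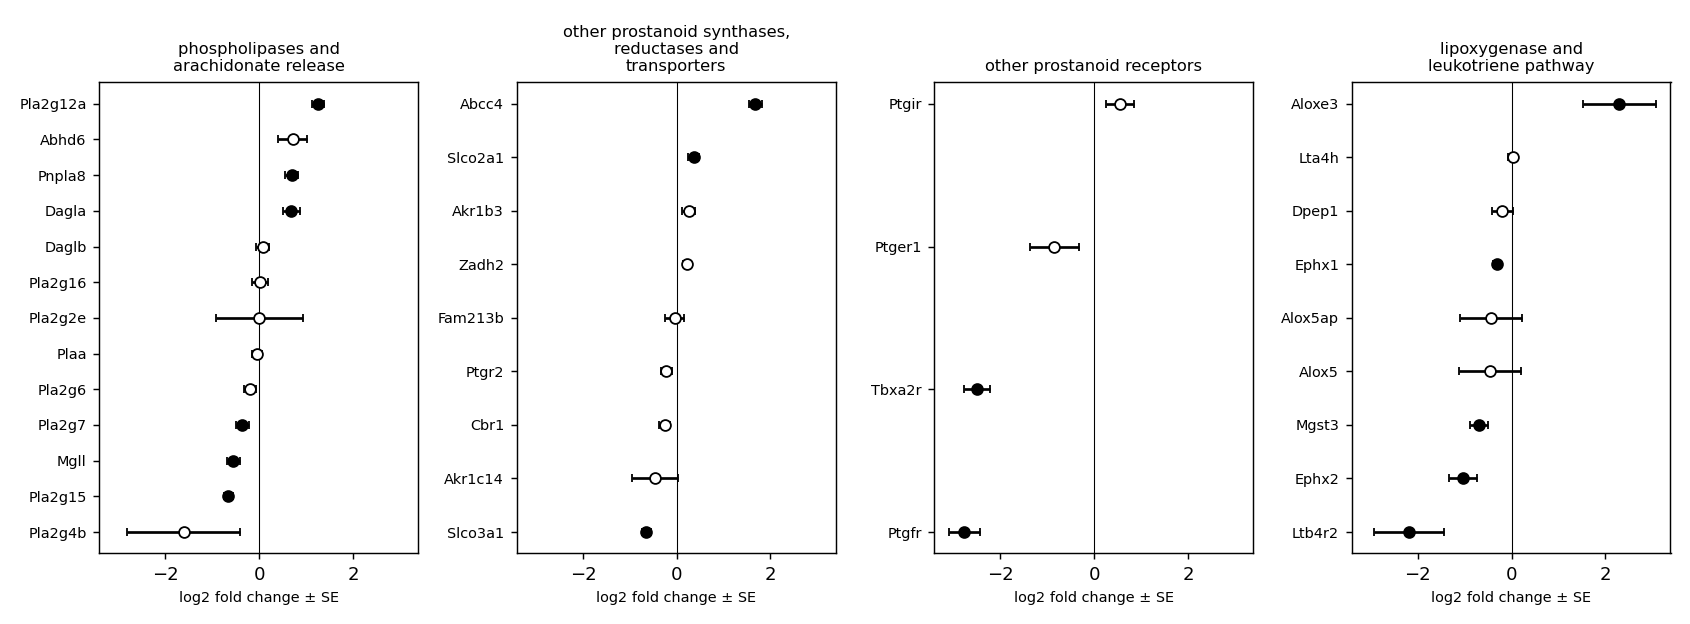
Log2 fold change of erastin over DMSO ± SE (horizontal axes) for the tested genes of the 4 pathway lists; filled points had an edgeR adjusted p-value under 0.05. Ptgfr and Tbxa2r were lowest among the receptors, at -2.77 and -2.50, and Abcc4 and Pla2g12a highest in their lists, at 1.68 and 1.26.

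Outside the pathway, the 5 genes whose level followed that of Ptgs2 most closely over the 6 libraries were Cd44, Gpnmb, Adm, Cryab and Alkbh5, with Pearson's r of log2 CPM of 0.9988 to 0.9996 among the 11252 genes compared, those averaging 50 reads or more. These are descriptions over 6 libraries that share the treatment, and 1016 genes had an r over 0.95. Cd44, a hyaluronan receptor, rose 2.42-fold, from 551 ± 52.1 to 1334 ± 198 CPM (SD, n = 3), with 1108 CPM in erastin library 3 against 1476 and 1419 CPM in the other erastin libraries. Like Ptgs2, Cd44 was lowest in library 3 of both groups. It was chosen by its correlation with Ptgs2 over these libraries, so this likeness is not a separate observation. Adm, which encodes the peptide adrenomedullin, and Cryab, a small heat shock protein gene, rose 2.33-fold and 2.22-fold. Gpnmb and Alkbh5 rose 1.27-fold and 1.46-fold (edgeR adjusted p of at most 0.00147 for each of the 5).

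**Figure D5:**
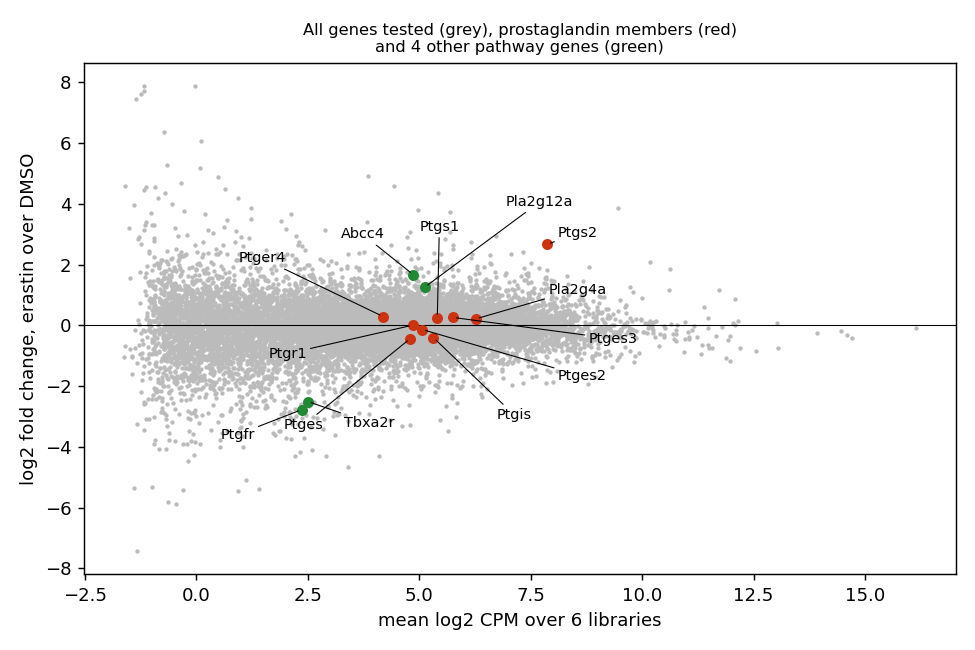
Mean log2 CPM over the 6 libraries (horizontal axis) against the log2 fold change of erastin over DMSO (vertical axis) for the 14000 genes tested (grey), the 9 tested prostaglandin genes (red) and Ptgfr, Tbxa2r, Abcc4 and Pla2g12a (green). Ptgs2 lies above the cloud at its expression level, the other red points lie within it, and the receptors Ptgfr and Tbxa2r lie near its lower edge.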

How the data were processed

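Read counts per gene of 6 libraries were used as the authors deposited them, raw and with 1 column per library. RNA was depleted of ribosomal RNA, made into PCR-amplified barcoded libraries and read on an Ion Proton, per the labels' protocols. HTSeq 0.9.1, SAMtools and the build mm10 are named in the submitters' processing notes; the aligner, annotation and strand setting are not given in the sources used here, so overlapping and antisense genes cannot be told apart. Table columns were assigned by the numbers that the labels give each sample, and 42462 identifiers (98%) to GENCODE M21 symbols on GRCm38, which gave coordinates, lengths and GC content. Promoter sequences are from RefSeq.

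Genes were kept by filterByExpr (minimum count 10), scaled by TMM and tested with edgeR 4.0.16 in R 4.3.3 by the quasi-likelihood test, treatment only; p-values were Benjamini-Hochberg adjusted over 14000 genes. SE came from the fitted weights, and intervals from them and the test's degrees of freedom. The fits were tested on simulated data: in 13722 genes, edgeR recovered 72.2% of genes changed by 1 and 97% of those changed by 2 on the log2 scale. It also called 11 unchanged genes. Changes under 1, such as those of the prostaglandin genes other than Ptgs2, were not simulated. Nor was a share of changed genes as large as in these data. Alternatives were RLE, upper-quartile and total-count scaling, no filter, a filter of 1 CPM in 3 libraries, a replicate block and DESeq2 1.42.0. Others were a GC and length offset (mgcv 1.9.3) with and without the block, an adjusted p-value under 0.01, and leaving out each library. The 15 alternatives given for single genes leave out the threshold of 0.01. Ptges (edgeR adjusted p = 0.0203) does not pass at that threshold. Named genes were the 10, in each list the 3 passing genes with the smallest p, receptors with at least 1 CPM in a library, and the 5 genes most like Ptgs2; genes that overlap a member or are its pseudogene were named from the annotation, and any other is said to have been named after its values were seen. The 10 genes and the lists were chosen with earlier results of these data known.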

Additional observations from a re-analysis of the deposited data

How the results depend on the processing

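Ptgs2 was higher and passed under all 15 alternatives; without the filter its adjusted p, 1.22e-213, was far below the others, which reached 1.71e-06 at most. The number of prostaglandin genes that passed was 2 to 4 against 3, and the genes behind it changed. Of genes higher, there were 2 in place of 1 with scaling by total count only, without the filter, and with the offset for GC and length, replicate block or not. Of genes lower, there was 1 in place of 2 with total count only, with that offset, block or not, and at an adjusted p-value under 0.01. Leaving out 1 library gave 1 to 2 higher and 1 to 2 lower. Ptgs1 and Ptges3 were the genes gained, Ptges and Ptgis those lost. The scaling alternatives moved the all-gene median (log2) from -0.001 to -0.055 (upper-quartile) and 0.065 (total count), and the share of higher among passing genes from 50.2% to 44% and 57.1%. Ptgr1, at 0.009, was -0.045 with upper-quartile factors and between -0.053 and 0.094 without 1 library. In the lipoxygenase and leukotriene list 5 genes passed, 2 of them at the 0.01 threshold; it was 3 to 5 without 1 library, the fewest without DMSO library 1. The count of all genes passing, 6028, was 4305 at the stricter threshold and 4802 to 5809 without 1 library. The share differences kept their sign, at 22.5 to 26.2 percentage points for Ptgs2 and -7.38 to -5.05 for Ptges without 1 library. Causes other than fewer libraries or a stricter threshold were not tested. With the replicate block 5882 genes and the same number of prostaglandin genes, 3, passed. Equally numbered libraries had a mean correlation of 0.013 in their deviations from the group means (-0.006 to 0.040 per pair). Of the 6 libraries, 3 correlated best with their own number. With 3 libraries per group this cannot decide whether equal numbers mark a shared batch. Genes under about 1 CPM, such as Hpgd, were limited by depth.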

Other observations

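Of the 3 DMSO libraries, library 3 had the lowest level of 8 of the 9 tested prostaglandin genes, all but Ptgr1, for which it was the highest. Over all 14000 genes tested, DMSO library 3 was the lowest of the 3 for 37.6% and the highest for 35.9%. Erastin library 3 was the lowest of the erastin libraries for 5 of the 9, against 36.8% of all genes. This pattern was noticed after the values were seen, and its cause was not tested. The non-coding genes Ptgs2os and Ptgs2os2, named for their place beside Ptgs2, were chosen after their values were seen. Ptgs2os had 15, 13 and 0 reads in DMSO libraries 1, 2 and 3, and 32, 25 and 27 reads in the erastin libraries. Ptgs2os2 had 8, 10 and 21 reads in DMSO and 37, 36 and 40 reads with erastin. These reads are raw and not scaled for library depth, and no fold change is given. In GENCODE M21 their exons share no bases with those of Ptgs2. The annotation and strand setting of the counting are not given, so how reads were assigned between these genes was not tested.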
